A study of Mus musculus with 12 samples.

Results

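The embryonic and adult globins are the protein subunits of hemoglobin, and their levels were read from RNA-seq of whole fetal mouse liver. The members were 9 gene symbols fixed by name (Hba-a1, Hba-a2, Hba-x, Hbb-b1, Hbb-b2, Hbb-bh1, Hbb-y, Hbb-bt and Hbb-bs), of which 5 had a row among the 30743 rows of the table used here. Those 5 were Hba-a2, Hba-x, Hbb-b1, Hbb-bh1 and Hbb-y, while Hba-a1, Hbb-b2, Hbb-bt and Hbb-bs had none under those symbols. One further row, Beta-s, carried a name that RefSeq gives only as a synonym of Hbb-bs. It was noticed after the table was read and was not among the fixed symbols, so its values are given beside the members and never counted with them unless stated.

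The livers came from male C57BL/6J fetuses taken whole at 15 ± 0.5 days post coitum (dpc). In the Control group (6 livers) the dams ate a diet with 13.5% of its energy from fat, and in the HFD group (6 livers) a high-fat diet with 60% from fat. Both diets ran for 12 to 14 weeks, and nothing in the labels ties a liver to a litter or dam. The study asked how the maternal diet alters blood formation in the fetal liver, but the table gave no value for a single liver. The only measurement used here is 1 column of average log2 CPM (log2 of read counts per 1000000) that the authors computed over the livers, so no comparison of the diets, no error and no test can be given, and every difference below lies between genes within that one average.

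Hemoglobin carries oxygen as a tetramer of alpha-like and beta-like chains, each holding a heme group. In the mouse the first, primitive red cells arise in the yolk sac and make the embryonic chains zeta (Hba-x), epsilon-y (Hbb-y) and beta-h1 (Hbb-bh1), and the definitive red cells that mature in the fetal liver make the adult alpha and beta chains. Primitive red cells still circulate at this stage, so a whole liver holds both kinds of cell, and in bulk RNA a smaller number of cells of a kind and less RNA per cell cannot be told apart.

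The promoters of an adult and an embryonic gene of each family are shown first, since the short motifs near the start site differ among them. Each run is the 110 bases before the annotated start, 5′ to 3′ on the gene's strand, from RefSeq (build GRCm38.p6). The capitals mark matches, on either strand, to 5 motifs. The CACC box, bound by factors of the Klf1 type, was searched as CACCC. The CCAAT box was searched by its own letters. The GATA motif, bound by Gata1 and its relatives, was searched as GATAA. The TATA box, which places the start of transcription, was searched in one form as ATAAA and in another form, which can overlap it, as TATAA. The windows are chr11:32296382-32296491 (plus strand) for Hba-a2, chr11:32276490-32276599 (plus strand) for Hba-x, chr7:103827929-103828038 (minus strand) for Hbb-bs and chr7:103853208-103853317 (minus strand) for Hbb-y.
Hba-a2: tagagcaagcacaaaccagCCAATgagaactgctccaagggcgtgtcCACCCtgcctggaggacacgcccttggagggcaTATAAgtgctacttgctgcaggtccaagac
Hba-x: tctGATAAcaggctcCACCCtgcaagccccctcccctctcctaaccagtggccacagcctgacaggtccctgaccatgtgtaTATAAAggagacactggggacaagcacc
Hbb-bs: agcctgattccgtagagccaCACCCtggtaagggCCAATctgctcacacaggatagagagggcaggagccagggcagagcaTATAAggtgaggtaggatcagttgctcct
Hbb-y: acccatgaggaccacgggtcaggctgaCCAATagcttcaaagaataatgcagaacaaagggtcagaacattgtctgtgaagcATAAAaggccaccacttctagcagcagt

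Both adult promoters held a CACC box, a CCAAT box and the second TATA form, at 63, 91 and 30 bases before the start in Hba-a2 and at 90, 76 and 29 bases before it in Hbb-bs. Hba-x held a CACC box at 95 bases, a GATA motif at 107 bases and both TATA forms, overlapping, at 27 and 28 bases, with no CCAAT box. Hbb-y held a CCAAT box at 83 bases and the first TATA form at 28 bases, and none of the other motifs. Among 32851 mouse promoters searched the same way, the CACC box was in 29.6%, the CCAAT box in 20.2%, the first TATA form in 18.9%, the second in 10.9% and the GATA motif in 9.43%. The second TATA form was added to the search after these sequences had been read. A match is a description of the letters and not of binding, and a missing match says only that the letters are not in the window. Of the members without a row, Hba-a1 had the same 107 bases as Hba-a2 when both were aligned on the CCAAT box, where their annotated starts lie 3 bases apart. Hbb-bt, aligned in the same way, differed from Hbb-bs at 29 of 109 bases and held 2 CACC boxes and 3 CCAAT boxes, counting both strands.

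The near-identity of the adult copies limits what a row stands for. The coding sequences of Hba-a1 and Hba-a2 differed at 1 of 429 bases, the substitution C381T counted from the A of the start codon with the Hba-a1 base first. Those of Hbb-bs and Hbb-bt differed at 1 of 444 bases, C417T with the Hbb-bs base first. Both differences lie in exon 3, at the third base of codons 127 and 139, and leave the amino acid as it is. The genomic positions are 32284343 (Hba-a1) and 32297160 (Hba-a2) on chromosome 11, and 103826692 (Hbb-bs) and 103812683 (Hbb-bt) on chromosome 7. The stretches around them, coding bases 356 to 406 of the alpha pair and 392 to 442 of the beta pair, are shown on the coding strand with the differing base in capitals, since little but that base tells reads of the coding parts apart.
Hba-a1: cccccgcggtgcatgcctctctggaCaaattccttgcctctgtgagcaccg
Hba-a2: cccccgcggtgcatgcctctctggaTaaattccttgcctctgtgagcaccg
Hbb-bs: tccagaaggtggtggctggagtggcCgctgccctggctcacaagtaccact
Hbb-bt: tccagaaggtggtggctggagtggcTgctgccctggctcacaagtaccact

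Over the whole annotated mRNA, 439 of the 505 windows of 50 bases in Hba-a2 (86.9%) also occurred in Hba-a1, and 381 of the 579 windows in Hbb-bs (65.8%) also occurred in Hbb-bt. With windows of 100 bases the shares were 74.5% and 62.6%. No window of either length in Hba-x, Hbb-bh1 or Hbb-y occurred in a transcript of another gene. Each adult row is therefore uncertain as a single gene, because how reads that fit both copies were counted is not given in the sources used here. The embryonic coding sequences were also far from the adult ones, with 61.8% identity between Hba-a2 and Hba-x, 74.3% between Hbb-bs and Hbb-y and 74.1% between Hbb-bs and Hbb-bh1, and the embryonic beta-like pair shared 76.4%.

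The 5 members fell into 2 separate ranges of level. The adult chains were among the most abundant transcripts of the liver, with Hba-a2 at 15.60 log2 CPM (49707 CPM) and Hbb-b1, an adult beta chain, at 14.60 log2 CPM (24904 CPM). They took the 3rd and the 5th place among all 30743 rows. The embryonic chains were lower, with Hbb-y at 8.09 log2 CPM (273 CPM, place 501), Hba-x at 5.81 log2 CPM (55.9 CPM, place 2619) and Hbb-bh1 at 4.16 log2 CPM (17.9 CPM, place 4551). Even the lowest, Hbb-bh1, stood above 85.2% of all rows, while Hba-x stood above 91.5% and Hbb-y above 98.4%. In the table, 11091 rows sat at its lowest value of -2.71 log2 CPM and 10171 exceeded 1 CPM, and the median of those above 1 CPM was 3.71 log2 CPM, below that of every globin member present.

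**Figure D1:**
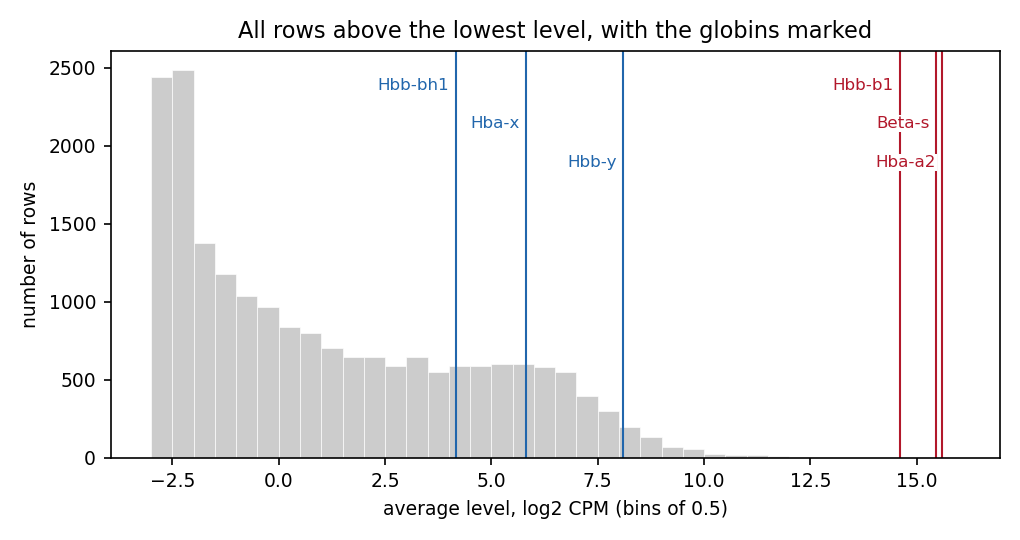
The histogram counts the 19652 rows above the lowest value by their average level in log2 CPM (horizontal axis, bins of 0.5; vertical axis, number of rows), with vertical lines at embryonic (blue) and adult (red) globins. The adult rows, Beta-s included, lie in the sparse upper end, and the embryonic rows lie between 4.16 and 8.09 log2 CPM, within the range of many other genes.

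Levels of different genes were set against each other per kilobase (kb) of coding sequence, which is 429 bases in Hba-a2 and Hba-x and 444 bases in the beta-like genes, a length that was also taken for Hbb-b1. On that scale Hba-a2 stood at 115868 CPM per kb, the highest of 18737 rows with a coding length, and Hbb-b1 at 56089 CPM per kb, the third. Beta-s lay between them at 100369 CPM per kb. Next came the liver proteins albumin (Alb) at 34655 CPM per kb and alpha-fetoprotein (Afp) at 29992 CPM per kb, both of which hepatocytes secrete. Per kb of coding sequence, the level of Hba-a2 was 3.34-fold that of Alb and 2.07-fold that of Hbb-b1. Without the length step Alb (15.95 log2 CPM) and Afp (15.73 log2 CPM) held the first and second places above Hba-a2. Annotated mRNA lengths of the globins differ more, from 554 bases in Hba-a2 to 801 bases in Hba-x, so folds depend on the length chosen.

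Among the embryonic chains Hbb-y led. Its level of 616 CPM per kb was 4.72-fold that of Hba-x at 130 CPM per kb and 15.3-fold that of Hbb-bh1 at 40.3 CPM per kb. Hba-x in turn stood 3.23-fold above Hbb-bh1. Hbb-y made up 93.9% of the summed embryonic beta-like level, and the embryonic beta-like rows together stood 5.03-fold above Hba-x, the only embryonic alpha-like gene listed. The order among all 5 members was thus Hba-a2, Hbb-b1, Hbb-y, Hba-x and Hbb-bh1. Its largest step, 91.1-fold per kb (6.51 on the log2 scale), lay between the lower adult and the highest embryonic row. Whether neighbours in this order differ beyond the spread between livers cannot be said without values for single livers.

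**Figure D2:**
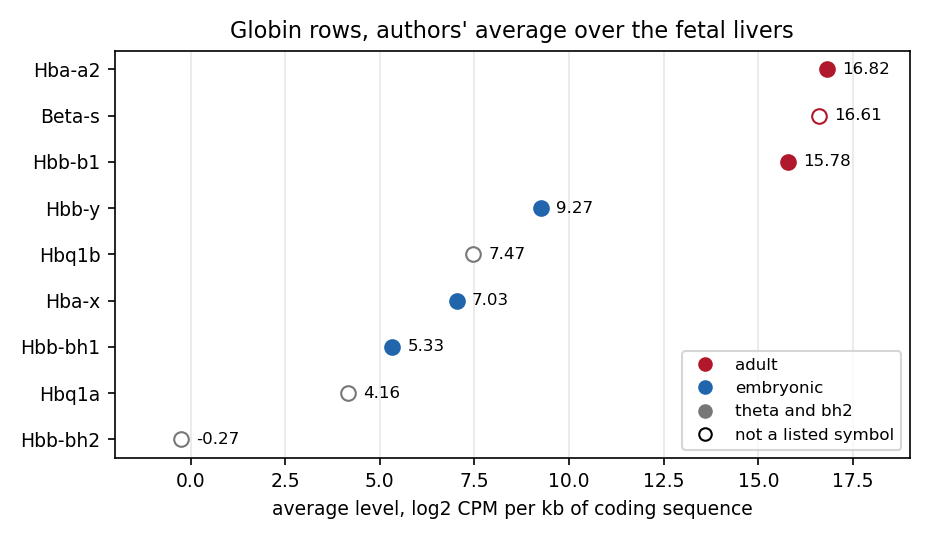
Each point is the authors' average level of one globin row, in log2 CPM per kb of coding sequence (horizontal axis), for adult (red), embryonic (blue) and other globins (grey), with open points for rows outside the fixed symbols. The adult rows lie between 15.78 and 16.82 and the embryonic rows between 5.33 and 9.27, with Hbq1b falling between Hbb-y and Hba-x.

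Within each family the adult chain exceeded its embryonic relatives by a wide margin. Per kb of coding sequence, Hba-a2 stood 889-fold above Hba-x, while Hbb-b1 stood 91.1-fold above Hbb-y and 1391-fold above Hbb-bh1. Embryonic chains therefore made up 0.112% of the alpha-like level (Hba-x of Hba-x and Hba-a2) and 1.16% of the beta-like level (Hbb-y and Hbb-bh1 of those with Hbb-b1). With Beta-s counted as beta-like, the embryonic share of the beta-like level was 0.418%, which remained above the alpha-like share.

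The balance between alpha-like and beta-like chains depended on the Beta-s row. Summed per kb, the members present gave alpha-like levels 2.04-fold those of beta-like, a difference of 1.03 on the log2 scale. With Beta-s included the ratio was 0.738 (-0.44 on the log2 scale), so that the beta-like level was the higher, by 1.35-fold. On the alpha-like side Hba-a1 had no row, and whether its reads were counted under Hba-a2 is not known. The alpha-like sum may thus be incomplete, and neither ratio measures the balance over all loci of the families. Beta-s held 64.2% of the adult beta-like level formed by Beta-s and Hbb-b1, and stood 1.79-fold above Hbb-b1 per kb. The mm10 reference, to which the reads were aligned, carries Hbb-bs and Hbb-bt as its adult beta genes. Hbb-b1 is not in the GENCODE M21 annotation, and RefSeq gives it no place within the beta-like cluster of that reference. From which locus the reads of the Hbb-b1 row came is not given in the sources used here. That row may hold reads of Hbb-bt, which has no row under its own symbol, but this was not tested.

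Members of one family lie side by side in the genome, with the embryonic genes at one end of each cluster and adult genes further along. In GRCm38 (mm10) the alpha-like genes lie on the plus strand of chromosome 11, with Hba-x at chr11:32276600-32278116, Hba-a1 at chr11:32283672-32284486 and Hba-a2 at chr11:32296492-32297310. The beta-like genes lie on the minus strand of chromosome 7, with Hbb-y at chr7:103851754-103853207, Hbb-bh1 at chr7:103841638-103843162, Hbb-bs at chr7:103826523-103827928 and Hbb-bt at chr7:103812524-103813923. Each of them has 3 exons. From the start of Hba-x, the start of Hba-a2 lay 19.9 kb downstream. From the start of Hbb-y, that of Hbb-bh1 lay 10.0 kb, that of Hbb-bs 25.3 kb and that of Hbb-bt 39.3 kb downstream. Hbb-y, the first gene of the beta-like cluster, stood above its neighbour Hbb-bh1.

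A further 3 globin genes of these clusters had rows, which bear on how low the embryonic rows are. Hbq1b and Hbq1a, the theta globins, lie on either side of Hba-a2, and Hbb-bh2 lies next to Hbb-bh1. Hbq1b stood at 6.25 log2 CPM and 178 CPM per kb, which was 1.36-fold above Hba-x and 9.96-fold above Hbq1a at 17.8 CPM per kb. Shared sequence between the theta genes was not measured, so whether reads fit both rows is not known. Hbb-bh2 was at -1.44 log2 CPM (0.369 CPM), under the 1 CPM that 10171 rows exceeded. Among globins outside the clusters, cytoglobin (Cygb) stood at 2.10 log2 CPM, and myoglobin (Mb) and neuroglobin (Ngb) were at the lowest value of the table.

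**Figure D3:**
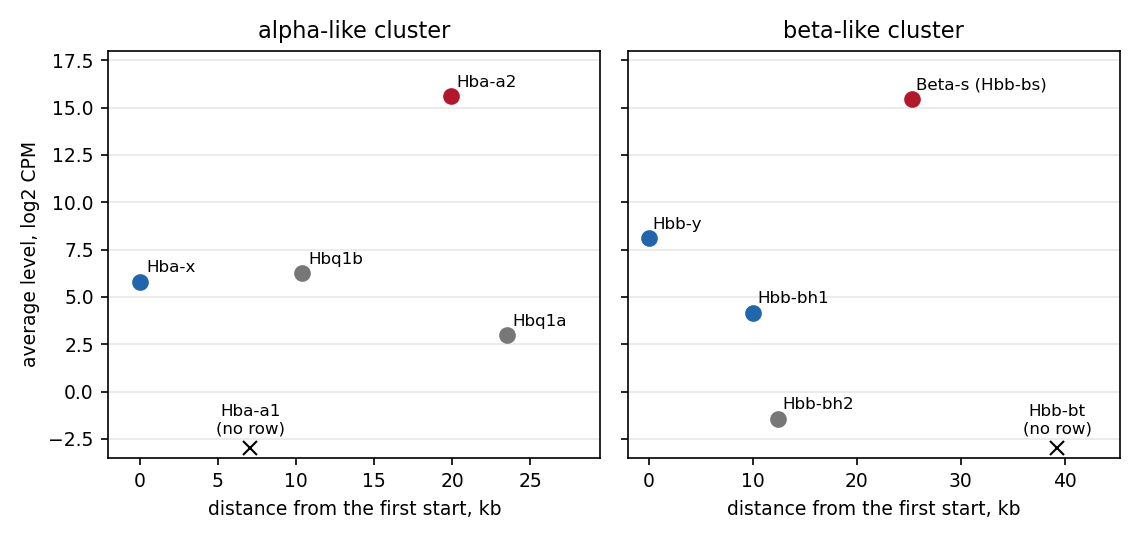
Average level in log2 CPM (vertical axis) of each globin gene against the distance of its start from the first start of its cluster in kb (horizontal axis), for the alpha-like (left) and beta-like (right) cluster, with adult genes in red, embryonic in blue and others in grey. Beta-s is drawn at Hbb-bs, and crosses at the foot mark genes with no row under their own symbol or a synonym. The Hbb-b1 row (14.60) is not drawn, since that gene is not in GENCODE M21 and RefSeq does not place it in the cluster. The adult rows drawn stand at 15.60 and 15.44.

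In the order of all rows by log2 CPM, Hba-a2 lay between Afp and Beta-s, and Hbb-b1 between Beta-s and DQ539915. Hbb-y was flanked by St13 and Ndufa4, Hba-x by 2010002N04Rik and Mrps27, and Hbb-bh1 by Cd248 and Trio. The 10 highest rows were completed by Slc4a1, the anion exchanger of the red cell membrane (13.56 log2 CPM), the ribosomal RNA precursor Rn45s (13.36 log2 CPM), the secreted liver glycoprotein Ahsg (12.73 log2 CPM) and the translation factor Eef1a1 (12.54 log2 CPM), with DQ539915 at 13.98 log2 CPM. The 5 globin members held 7.46% of the summed level of all rows (74958 of 1005170 CPM), of which nearly all came from the adult rows (7.42%) and 0.0345% from the embryonic rows. With Beta-s the globins held 11.9%, against 11.7% for Alb and Afp.

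The heme and red cell genes around the globins were set beside them from lists of textbook members, with levels per kb of coding sequence. Of the 8 heme synthesis genes, all had a row and 3 stood above Hba-x. Coproporphyrinogen oxidase (Cpox, 1318 CPM per kb) and uroporphyrinogen decarboxylase (Urod, 766 CPM per kb) also stood above Hbb-y, and protoporphyrinogen oxidase (Ppox) followed at 406 CPM per kb. By contrast Alas2, the first enzyme of the pathway in red cells, was at 0.399 CPM per kb, Fech, which inserts the iron, at 1.22 CPM per kb, and Alad was the lowest row of the list by log2 CPM (-0.66). These low values of enzymes that red cells need stand beside globin rows at the top of the table; the reason was not tested.

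Of the 9 genes for globin folding, red cell protection and hemoglobin clearance, 8 had a row and 7 of them stood above Hba-x. The highest was carbonic anhydrase 2 (Car2, 6001 CPM per kb), 19.3-fold below Hba-a2, followed by the antioxidant enzyme Prdx2 (1746 CPM per kb) and the biliverdin reductase Blvrb (1638 CPM per kb). Car1 was the lowest, at 0.52 log2 CPM, and Ahsp, the chaperone of free alpha chains, had no row. For erythroid iron supply, 8 of 8 genes had a row and 4 stood above Hba-x, led by the ferritin heavy chain Fth1 at 5833 CPM per kb. Abcb10 (10.35 log2 CPM) and Slc25a38 (8.12 log2 CPM), both of the mitochondrial membrane, followed in log2 CPM, and Steap3, a ferric reductase, was the lowest at 3.72 log2 CPM.

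Of the 14 red cell membrane genes, 9 had a row, and 6 of those stood above Hba-x. Slc4a1 stood at 4314 CPM per kb, 26.9-fold below Hba-a2, and the blood group antigen Kel at 595 CPM per kb. Ank1, which anchors the membrane skeleton, was at the lowest value of the table.

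All 10 genes of the list of erythroid transcription factors, which also holds the erythropoietin receptor Epor, had a row. Per kb, 6 of them stood above Hba-x and none above Hbb-y (616 CPM per kb). Without the length step, 4 of the 10 stood above Hbb-y. Klf1, which activates the adult beta genes, was at 612 CPM per kb, Nfe2 at 480 CPM per kb, Gata1 at 296 CPM per kb and its cofactor Zfpm1 at 267 CPM per kb. Gfi1b was the lowest at 1.25 log2 CPM. The rows of the 13 regulators linked to globin switching were lower, with a median of 2.79 log2 CPM per kb. Of these, 2 (Klf1 and Mbd2) stood above Hba-x per kb, and 5 did so without the length step. Whether the low rows among them reflect low transcript levels was not tested. Mbd2, which binds methylated DNA, was at 166 CPM per kb, the RNA-binding protein Igf2bp3 at 78.4 CPM per kb, and Bcl11a, a repressor of embryonic beta-like genes, at 22.9 CPM per kb. The orphan receptor Nr2c1 was the lowest at -2.60 log2 CPM. For comparison, the median of all rows with a coding length was -0.95 log2 CPM per kb, and that of such rows above 1 CPM was 3.52.

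**Figure D4:**
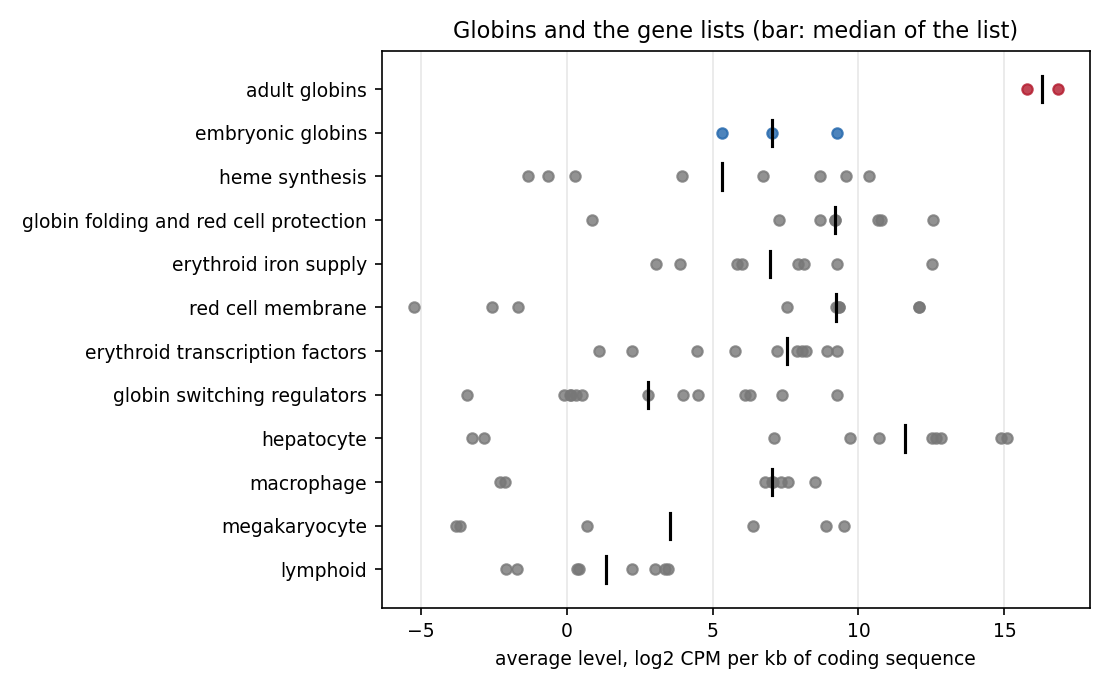
Each point is one gene with a row and a coding length, at its average level in log2 CPM per kb of coding sequence (horizontal axis), grouped by gene list (vertical axis), with a black bar at the median of the list, adult globins in red and embryonic globins in blue. The embryonic globins, from 5.33 to 9.27, overlap the spread of the erythroid lists, and the adult globins lie above every gene of the other lists.

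The label of whole fetal liver was checked against markers of the cells it can hold. Of 10 hepatocyte genes, all had a row and 8 stood above Hba-x per kb, with Alb, Afp and Apoa1 (6410 CPM per kb) the highest in log2 CPM, while Hnf4a, the nuclear receptor that defines the cell type, was at the lowest value of the table. Of 10 macrophage gene symbols, 9 had a row, led by Cd5l (8.59 log2 CPM), Vcam1 (8.18) and Marco (7.70). Emr1, which encodes the defining antigen F4/80, was at the lowest value. The symbol without a row, Adgre1, is another name of that same gene. Of 6 megakaryocyte genes, Ppbp (7.97 log2 CPM), Pf4 (7.23) and Gp9 (5.47) led. The 8 lymphoid genes were low, from Cd3e at -2.50 to Rag1 at 3.89 log2 CPM, with Cd79a at 2.42 and Vpreb1 at 2.24, and none stood above Hbb-bh1. The summed level of the erythroid lists was 3314 CPM for heme synthesis, 17112 CPM for the red cell membrane and 2926 CPM for the transcription factors, against 74611 CPM for the adult globins alone. The share of each cell type in the liver was not measured, and why defining markers such as Hnf4a, Ank1 and Emr1 sat at the lowest value was not tested. Whether other low rows, in these lists or among the embryonic globins, reflect low transcript levels was likewise not tested. Comparisons between genes carry that limit.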

How the data were processed

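Poly(A)-selected Illumina RNA-seq had been run on 12 livers, 6 per diet group. Per the submitters' processing notes, reads were handled with cutadapt 1.2.1, Subread 1.3.6-p1 (genome mm10) and edgeR. The counting tool, its treatment of reads that fit several genes and the edgeR version are not given in the sources used here. The authors deposited 1 table with 2 columns of average log2 CPM per gene, from their fits with a tagwise (used here) and a common dispersion (not used), and 8 columns of their own diet comparison (log2 fold changes, fold changes, p-values and FDR values), which were not used. With no values for single livers, depth and replicate error are unknown and no test was run.

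CPM was taken as 2 to the power of the deposited log2 CPM and divided by the longest coding length of the gene in GENCODE M21. Hbb-b1 took the length shared by the beta-like genes, and Beta-s that of Hbb-bs. Gene coordinates and promoters (6 of 9 members matched) came from RefSeq, and coding sequences and 50-base windows from GENCODE M21. Functions were tested on simulated data (Python 3.11.15, numpy 2.4.6, pandas 2.3.3).

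The members and lists were chosen with earlier results of these data known. The genes named were all members present, the 10 highest rows, the 3 highest and the lowest row of each list by log2 CPM, and the rows next to each member; 2 genes of these lists are not reported here. Alas2, Fech, Gata1, Bcl11a, Ahsp, Ank1, the theta globins, Hbb-bh2, Beta-s, Cygb, Mb and Ngb were named after their values were seen.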

Additional observations from a re-analysis of the deposited data

How the results depend on the processing

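The share of the summed level held by the 5 globin members, 7.46%, was 7.50% with 1000000 CPM as the denominator, 7.49% with only rows above 1 CPM in the sum and 11.9% with Beta-s. Leaving out the length step cannot change the embryonic share, since coding lengths are equal within each family. That share was 0.418% for beta-like chains with Beta-s, and 0.0778% for alpha-like chains per kb of whole mRNA. The difference of alpha-like minus beta-like level was 0.98 on the log2 scale without the length step and reversed to -0.44 with Beta-s. Among rows above the lowest value, among rows above 1 CPM and per kb, in that order, Hbb-y stood above 97.5%, 95.1% and 99.1% of rows, Hba-x above 86.7%, 74.3% and 94.3%, and Hbb-bh1 above 76.8%, 55.3% and 86.8%. Without the length step the log2 differences were 1.00 for Hba-a2 minus Hbb-b1, 2.29 for Hbb-y minus Hba-x and 1.64 for Hba-x minus Hbb-bh1, with the order of the members kept. The alternatives with Beta-s and with whole mRNA length were chosen after seeing the data. Dropping low rows cannot change a difference between members, and the table's second average column, planned as an alternative, was not run. No paired analysis was possible because the table gives no values of single livers, and for the same reason no liver could be left out.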
